A study of Homo sapiens with 16 samples.

Results

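The distal end of the long arm of human chromosome 19, starting at 52 Mb of the hg19 build and running over 6.7 Mb toward the telomere, holds clusters of zinc finger genes, and the acetylation peaks that were listed there are described below. All peaks of the 8 deposited lists that overlapped this window were taken, without regard to their width or to the cell line. This gave 1272 peaks of 179689 in all lists, and the rest of chromosome 19 held 12532. No peak crossed either edge of the window, and no list was left out.

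The study compared ovarian cancer cell lines that are sensitive or resistant to cisplatin (cPt), and asked how acetylated regulatory regions differ between them. H3K27ac was profiled by ChIP-seq, which sequences the DNA of nucleosomes captured with an antibody against a histone mark, in 6 cell populations, and H3K9ac in A2780 and A2780cis. A2780 is a cPt-sensitive line from an endometrioid adenocarcinoma, grown without treatment, and A2780cis is its resistant counterpart, kept in medium with cPt. CAOV4 is a high-grade serous line, grown without treatment, and CAOV4cis was derived from it by prolonged exposure to rising cPt and was likewise kept in cPt. The other 2 populations were A2780 cells with a knockdown of MBD3, a subunit of the NuRD chromatin remodeling complex, for 1 week, by the hairpin shMBD3.26 or shMBD3.232. These hairpins were expressed from a doxycycline-inducible vector in Tet-on competent cells, and GFP-positive cells were sorted, whereas the A2780 list they are set against comes from the untreated parental line. All nucleosome preparations were made with MNase and carried a spike-in from *D. melanogaster*. Each condition has 1 library, so no difference between cell lines or hairpins has a replicate check, and 6 of the 8 lists come from A2780 or cells derived from it. The lists hold no expression values, so the labelled cell types could not be checked against marker genes.

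H3K27ac lies on nucleosomes of active enhancers and promoters, and H3K9ac mostly on those of active promoters. Most zinc finger proteins encoded on chromosome 19 carry a KRAB domain, which recruits the corepressor TRIM28, and many of them bind and silence transposable elements. In the gene order of RefSeq (assembly GRCh38.p14), 265 of 1451 protein-coding genes on chromosome 19 have a zinc finger symbol. Distal to FPR3, a formyl peptide receptor gene, lie 229 protein-coding genes, of which 111 count as zinc finger genes by symbol (ZNF, ZSCAN, ZIM, ZFP or PEG3). This count leaves out MZF1, ZIK1, ZBTB45 and FIZ1 and takes in ZNF470-DT. Going toward the telomere, a first run extends from ZNF577 to ZNF331. It is followed by the microRNA cluster of chromosome 19 with 49 microRNA genes, by the leukocyte receptor genes of the LILR, LAIR and KIR families (19 genes), and by a block that includes TNNT1 and TNNI3, which encode a skeletal and a cardiac troponin, and a few zinc finger genes such as ZNF628. The NLRP genes (9 genes), whose proteins belong to the NOD-like receptor family, lie in separate groups among these. Further zinc finger genes then run from ZNF787 past the imprinted gene PEG3 to MZF1, with TRIM28 itself near the end. This order names the neighborhood only, and which of these genes fall inside the window was not set. The lists are on hg19 and the gene table is not, so no peak below is assigned to a gene and no sequence is given for it.

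Peaks of both marks were fewer per Mb in the window than in the rest of chromosome 19 in all 8 lists, and stood farther apart. For H3K27ac, A2780 had 208 peaks in the window or 31.0 per Mb, against 43.0 per Mb in the rest. A2780cis had 165 peaks or 24.6 per Mb, against 30.3. CAOV4 had 143 peaks (21.3 per Mb against 23.8) and CAOV4cis 129 (19.3 against 22.1), so that the CAOV4 lines were nearest to the rest of the chromosome. With shMBD3.26, 184 peaks were listed (27.5 per Mb against 35.3), and with shMBD3.232, 169 (25.2 against 32.5). For H3K9ac, A2780 had 166 peaks (24.8 per Mb against 30.2) and A2780cis 108 (16.1 against 22.2), the fewest of all lists. The density of the window over that of the rest was thus between 0.721 in A2780 and 0.895 in CAOV4 for H3K27ac, and all lists lay below 1. Expressed as a share of the chromosome 19 peaks of a list, the window held 8.46% in A2780 (95% Wilson interval 7.42 to 9.62) and 10.3% in CAOV4 (8.8 to 12), the lowest and highest of the lists. The intervals cover counting error only. The window spans 6.7 Mb and the rest 52.4 Mb. Its share of that length lay inside the intervals of CAOV4 and CAOV4cis (8.51 to 11.8), so the lower density there was within counting error. It lay above the intervals of the lists of A2780 origin.

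The share of the window's length that peaks covered was below that of the rest in every list. For H3K27ac, this share was 11.4% in A2780, 9.76% in A2780cis, 8.41% with shMBD3.26, 8.67% with shMBD3.232, 5.31% in CAOV4 and 4.67% in CAOV4cis. The rest of the chromosome was covered to 15.8%, 14.5%, 11.4%, 13.2%, 7.22% and 5.9% in the same order. H3K9ac peaks covered 5.59% in A2780 and 4.52% in A2780cis, against 7.34% and 7.06%. The window was therefore covered to between 0.64 and 0.792 times the level of the rest, with the lowest ratio for H3K9ac in A2780cis.

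The median gap between neighboring H3K27ac peaks was 10.8 kb in A2780 (95% interval from order statistics 7.8 to 14.8) and 5.5 kb in the rest (5.2 to 6.0). In A2780cis it was 18.0 kb against 8.8 kb, with shMBD3.26 16.0 kb against 8.4 kb, and with shMBD3.232 17.2 kb against 7.6 kb. The 2 CAOV4 lines differed less, with 16.9 kb against 12.8 kb in CAOV4 and 18.4 kb against 12.6 kb in CAOV4cis. The largest median gap was that of H3K9ac in A2780cis, 29.2 kb against 15.4 kb, and H3K9ac in A2780 had 16.4 kb against 10.3 kb. Gaps were larger in the window in 8 of 8 lists, by 1.32 to 2.26 times. The intervals of window and rest were apart in the 6 lists of A2780 origin, whereas they overlapped in CAOV4 and met at 14 kb in CAOV4cis. Close neighbors were fewer in the lists of A2780 origin: 33.3% of gaps in A2780 H3K27ac were at most 5 kb, against 47.6% in the rest, and 13.1% against 27.4% in A2780cis H3K9ac. In CAOV4 the values were 28.2% (21.4 to 36.1) against 31.6%, and in CAOV4cis 27.3% (20.4 to 35.6) against 30.4%, within counting error.

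Widths differed less than spacing did. The median H3K27ac peak in the window was 2600 bp in both A2780 and A2780cis, against 2400 and 3200 bp in the rest. It was 2000 bp with shMBD3.26, 2400 bp with shMBD3.232, 1800 bp in CAOV4 and 2200 bp in CAOV4cis. H3K9ac peaks had a median of 1700 bp in A2780 and 2500 bp in A2780cis. The median was below that of the rest in 5 lists and above it in 3, and the 95% intervals of window and rest overlapped or met in all 8. Very wide H3K27ac peaks were few: 11 of the 208 peaks in A2780, 12 of 165 in A2780cis and 3 of 143 in CAOV4 exceeded 10 kb, and none of 129 in CAOV4cis. These are 5.29%, 7.27%, 2.1% and 0.0%, against 6.26%, 11.2%, 2.89% and 1.56% in the rest, with overlapping intervals in each.

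**Figure D1:**
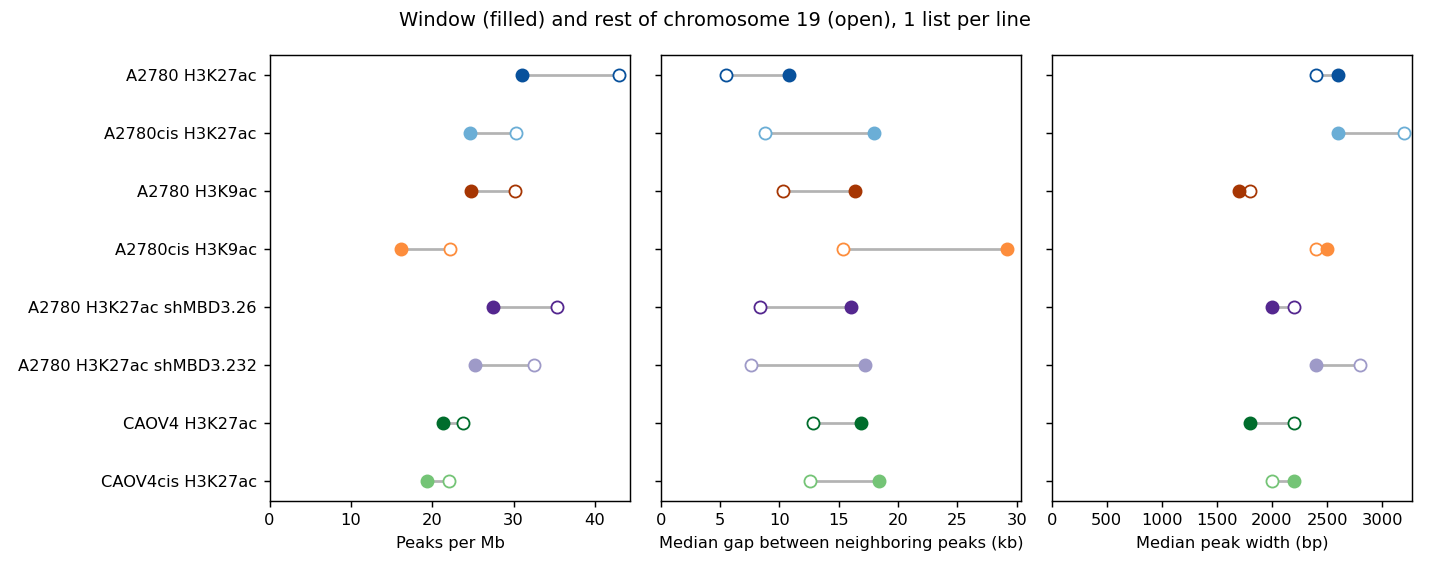
Peaks per Mb (left), median gap between neighboring peaks in kb (middle) and median peak width in bp (right) for each of the 8 lists, with a filled circle for the window and an open circle for the rest of chromosome 19. Filled circles lie left of open ones for density and right of them for gaps in every list, and on either side for width, and there are no error bars because each condition has 1 library.

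The rest of the chromosome is itself uneven. When it was divided into 7 stretches of the same 6.7 Mb, counted back from the window, the window held more peaks than 3 of the 7 and fewer than 4, in every list. In A2780, H3K27ac peaks per stretch ranged from 29 to 472, and the 208 of the window lay between the 195 and 274 of its nearest neighbors in that order. The median gap of the window exceeded that of 5 of the 7 stretches in 5 lists and of 4 of the 7 in the other 3. The 3 stretches with fewer peaks lay side by side, from 18.5 to 38.6 Mb. Not all zinc finger genes of the chromosome are distal to FPR3, and which stretches hold the others was not set. The window was thus of middling density among these stretches, and the parts left out were not compared. Whether it differs from the 7 stretches beyond the spread between libraries was not tested.

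Within the window, peaks were gathered in a few places. Of 14 bins of 500 kb (the last spans 200 kb), the bin from 55.5 to 56.0 Mb was the richest, with 264 of the 1272 peaks or 20.8%. It held 45 H3K27ac peaks in A2780, 40 in A2780cis, 42 with shMBD3.26, 37 with shMBD3.232, 25 in CAOV4 and 22 in CAOV4cis. H3K9ac had 33 peaks there in A2780 and 20 in A2780cis. It was the richest bin in each list, and peaks covered 40.0% of it for H3K27ac in A2780, 35.7% in A2780cis, 13.4% in CAOV4 and 10.1% in CAOV4cis. From 56 to 56.5 Mb the same order was seen, with 23.3% and 18.6% in the A2780 pair and 5.96% and 3.2% in the CAOV4 pair. The covered length of the CAOV4 lines was spread more evenly, in that the richest bin took 18.8% and 16.1% of their covered length in the window, against 26.2% and 27.3% in A2780 and A2780cis. The bin next to it, from 55 to 55.5 Mb, was the poorest, with 13 peaks over all lists and between 1 and 3 in each.

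The order of bins was not the same in the 2 cell line pairs. From 54.0 to 54.5 Mb, H3K27ac peaks covered 13.4% of the bin in A2780 and 10.4% in A2780cis, whereas in CAOV4 and CAOV4cis they covered 2.8% and 1.52%. From 53.0 to 53.5 Mb, the values were 13.6% and 8.36% in the A2780 pair and 9.96% and 11.7% in the CAOV4 pair. From 58.0 to 58.5 Mb, they were 11.6% and 8.8% against 11.1% and 9.84%. The CAOV4 pair was thus well below the A2780 pair in the first of these bins, and within its range in the others.

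**Figure D2:**
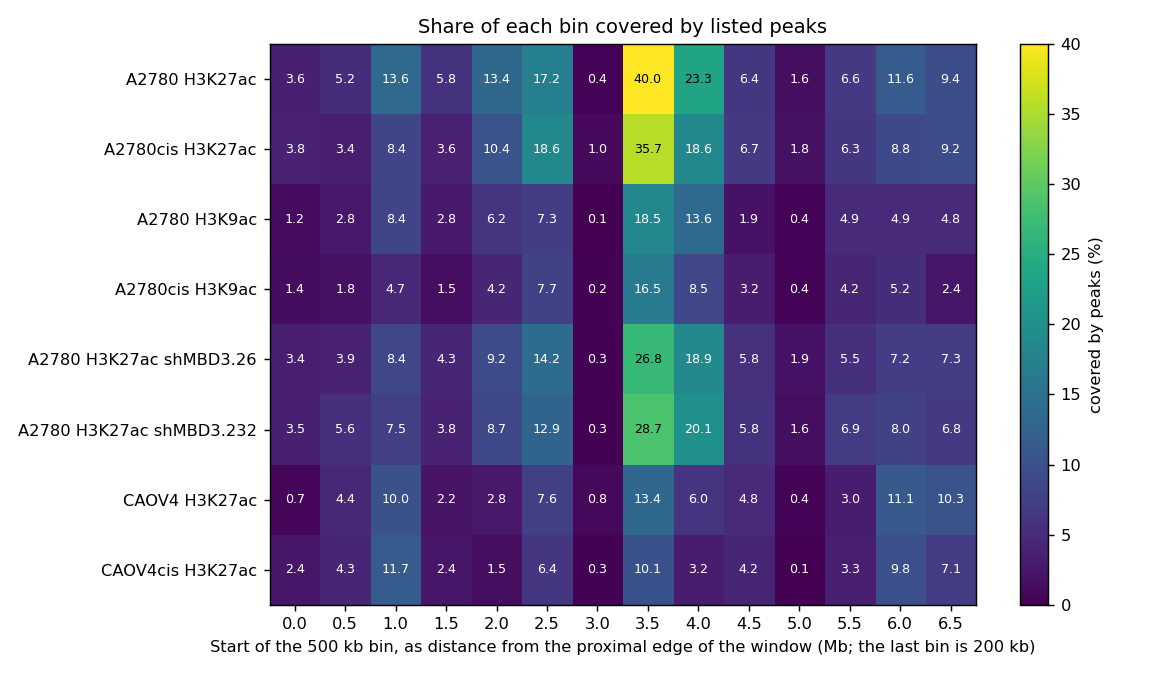
Share of each bin covered by peaks (%, color and printed values) for the 8 lists (rows) along the window (columns, distance of the bin's start from the proximal edge in Mb). The bin at 3.5 Mb has the highest value in 7 lists, from 13.4 to 40.0%, and the bin at 3.0 Mb is at or below 0.96% in all 8. In CAOV4cis the highest value is 11.7%, at 1.0 Mb.

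Between these places lay long stretches with no peak in any list. The longest was chr19:57183601-57597200 with 413.6 kb, and the next chr19:54986401-55392000 with 405.6 kb, which took up most of the poorest bin and ended before the richest one. Together, 7 stretches over 100 kb without a peak made up 1.58 Mb or 23.6% of the window. In the rest of the chromosome 49 such stretches made up 28.8%, the longest of them 3.43 Mb. Without that longest stretch the share of the rest was 23.8%, so that both were alike. Within single lists, gaps over 100 kb were a larger share of all gaps in the window in all 8, as with 4.83% against 2.89% for H3K27ac in A2780 and 11.7% against 8.83% in CAOV4cis, with overlapping intervals in each list. The median gap between regions merged over all lists was 7.4 kb in the window and 3.4 kb in the rest.

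Merging all peaks that had at least 1 bp in common across the 8 lists gave 283 regions. Of these, 42 (14.8%, 11.2 to 19.5) held a peak of all 8 lists and 37 (13.1%, 9.64 to 17.5) a peak of 7, while 110 (38.9%, 33.4 to 44.7) were listed in 1 sample only. In the rest of the chromosome the shares were 12.1%, 7.62% and 46.5%, so that regions listed in 1 sample were less frequent in the window and those listed in 7 more frequent. The intervals of window and rest were apart for 7 lists, met for 1 list and overlapped for 8. A merged region is the union of its peaks, so a region of more lists is wider by construction. The median was 700 bp for regions of 1 list, 3600 bp for those of 4, 3200 bp for those of 5 and of 6, and 8500 bp for those of all 8. Regions of all 8 lists were narrower than in the rest, where their median was 11900 bp. The 110 regions of 1 list came from A2780 H3K27ac (27), CAOV4 (21), A2780 H3K9ac (20), shMBD3.26 and CAOV4cis (12 each), A2780cis H3K27ac (8), shMBD3.232 (7) and A2780cis H3K9ac (3). All 4 H3K27ac lists of A2780 origin shared 120 regions (42.4%, 36.8 to 48.2), against 30.5% (28.9 to 32.2) in the rest.

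**Figure D3:**
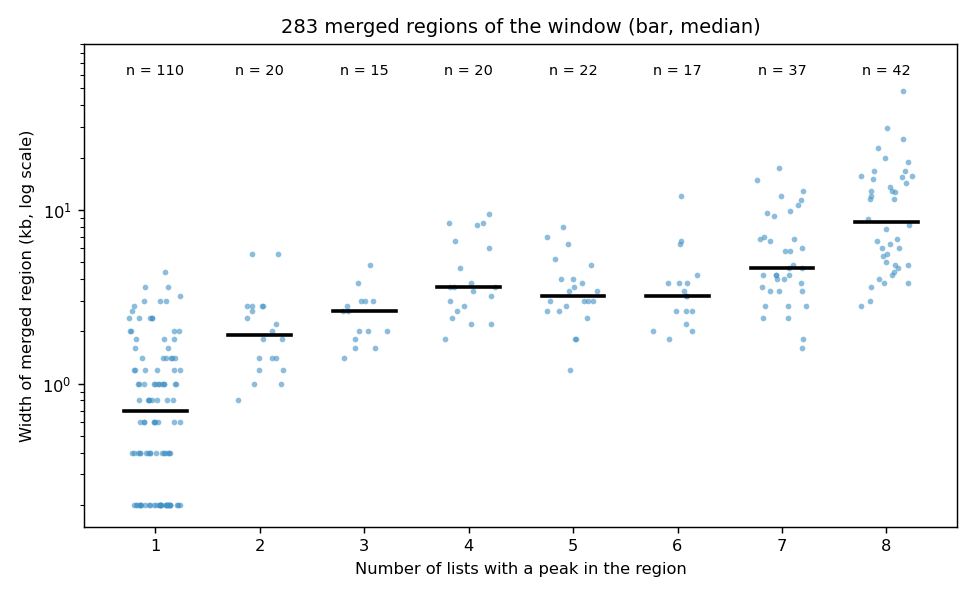
Width of each of the 283 merged regions of the window (kb, log scale) against the number of the 8 lists with a peak there, with 1 point per region and a bar at the median. Medians run from 700 bp for the 110 regions of 1 list to 8500 bp for the 42 regions of all 8, and the widest region is 48.0 kb.

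The widest region with peaks of all 8 lists was chr19:56142601-56190600, of 48.0 kb. H3K27ac peaks covered 41.2 kb of it in A2780, 46.4 kb in A2780cis, 41.2 kb with shMBD3.26, 43.2 kb with shMBD3.232, 20.0 kb in CAOV4 and 9.6 kb in CAOV4cis, and H3K9ac peaks covered 26.6 kb in A2780 and 27.8 kb in A2780cis. In A2780cis a single H3K27ac peak spanned nearly the whole region, while in the CAOV4 lines it was broken into 5 peaks each. It also held the widest peak of the window in 5 lists: chr19:56143201-56176000 in A2780 (32.8 kb), chr19:56143001-56189400 in A2780cis (46.4 kb), chr19:56143001-56162200 with shMBD3.26 (19.2 kb), chr19:56143001-56174200 with shMBD3.232 (31.2 kb), and for H3K9ac chr19:56145601-56157400 in A2780cis (11.8 kb). The 4 H3K27ac peaks began within 200 bp of each other and ended at different places.

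The next region, chr19:58304001-58333400 of 29.4 kb, had the opposite order of cell lines. H3K27ac covered 23.8 kb of it in CAOV4 and 20.0 kb in CAOV4cis, against 13.0 kb in A2780, 12 kb in A2780cis, 9.4 kb with shMBD3.26 and 11.6 kb with shMBD3.232. H3K9ac covered 8.0 kb in A2780 and 11.2 kb in A2780cis. The widest CAOV4 peak of the window, chr19:58315801-58328200 (12.4 kb), lay here. In the third region, chr19:55967401-55992800 of 25.4 kb, H3K27ac covered 22.4 kb in A2780 and 24.2 kb in A2780cis but 17.2 and 13.2 kb with shMBD3.26 and shMBD3.232, and 6.4 and 6.8 kb in CAOV4 and CAOV4cis. H3K9ac covered 14.8 kb in A2780 and 7.2 kb in A2780cis. The CAOV4 lines were thus the lowest in 2 of these regions and the highest in 1. The widest peaks not yet named were an H3K9ac peak of A2780 at chr19:55788001-55797400 (9.4 kb), which H3K27ac peaks covered whole in both A2780 and A2780cis, and a CAOV4cis peak at chr19:56644601-56652000 (7.4 kb), which was covered whole in CAOV4 and to 1.4 kb in A2780.

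In the comparison of A2780cis with A2780, which addresses how H3K27ac differs in the resistant line, most H3K27ac regions of the window were common and losses outnumbered gains. Of 217 merged regions, 142 (65.4%, 58.9 to 71.4) had a peak in both lines, 16 (7.37%, 4.59 to 11.6) in A2780cis only and 59 (27.2%, 21.7 to 33.5) in A2780 only. They are called common, gained and lost here, by the presence of a listed peak and not by its strength. Over all listed chromosomes, which leave out chromosomes 20, 21 and 22, 17.9% of regions were gained and 38.1% lost, and in the rest of chromosome 19 11.7% and 35.8%. The lost share of the window lay below both, and the interval of the window did not reach that of the rest of the chromosome (33.9 to 37.8). The A2780 list is the longer one, with 28662 peaks in all against 20899 in A2780cis. With equal numbers of the widest peaks from both, 20 regions were gained and 32 lost, and with partners allowed within 5 kb 6 were gained and 35 lost.

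Lost regions were mostly narrow. Of the 79 A2780 peaks of up to 2 kb in the window, 41 or 51.9% had no partner in A2780cis, against 18 of 129 or 14% of wider peaks. Of the 103 wider peaks of A2780cis, 2 had no partner in A2780 (1.94%, 0.534 to 6.81). In the rest this share was 5.57% (4.33 to 7.13), with overlapping intervals. For A2780 peaks the rest had 58.9% and 17.2% in the same width classes, with overlapping intervals in both. Over all widths 28.4% of A2780 peaks had no partner in the window and 36.0% in the rest. Common regions kept their width on the median: A2780cis peaks covered 1.0 times the length that A2780 peaks did, 61 regions were covered more in A2780cis, 62 less and 19 equally.

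The widest lost region was chr19:55871001-55876200, which was covered over 5.2 kb in A2780 and in no other list but that of shMBD3.232, with 0.4 kb. It lies between 2 of the regions with peaks of all 8 lists. The next, chr19:56046401-56051000, was covered over 4.6 kb in A2780 and not in A2780cis or either CAOV4 line, but over 3.0 kb with shMBD3.26, 4.4 kb with shMBD3.232 and 1.4 kb by H3K9ac in A2780. Neither was listed in a CAOV4 line. The widest gained regions were both of 2.4 kb. One, chr19:54924801-54927200, was listed in A2780cis alone, and the other, chr19:56601801-56604200, was also covered over 1.2 kb in CAOV4 and 0.8 kb in CAOV4cis. All 16 gained regions lay between 54.0 and 57.5 Mb, with 6 of them in the richest bin, whereas lost regions were found in 11 of the 14 bins and 12 of 59 in the richest. The richest bin also held 30 of the 142 common regions. Whether changed regions were placed otherwise than common ones was not tested.

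For H3K9ac, 83 of 176 regions (47.2%, 39.9 to 54.5) were common, 20 (11.4%, 7.48 to 16.9) were gained in A2780cis and 73 (41.5%, 34.5 to 48.9) were lost. Over all listed chromosomes, 21.7% were gained and 46.0% lost, and in the rest of chromosome 19 19.2% (17.5 to 21.1) and 38.9% (36.7 to 41.1). The gained share of the window was thus below that of the rest, with intervals that did not meet, while the lost share was within the counting error of that of the rest. The A2780 list held 22782 H3K9ac peaks in all and that of A2780cis 15365. With equal numbers of the widest peaks from both, 27 regions were gained and 40 lost. Here too narrow peaks made up most of the losses: 61 of 99 A2780 peaks of up to 2 kb (61.6%) had no partner, against 12 of 67 wider ones (17.9%). The rest of chromosome 19 was alike, with 63.5% and 20.9% and overlapping intervals in both classes. In the common regions, A2780cis covered 0.953 times the length of A2780 on the median in the window and 1.12 times in the rest.

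The widest H3K9ac changes lay where H3K27ac was listed in both lines. At chr19:58313801-58318800, H3K9ac covered 5.0 kb in A2780cis and none in A2780, while H3K27ac covered 3.6 kb in A2780 and 3.0 kb in A2780cis. At chr19:55669401-55672400, H3K9ac covered 3.0 kb in A2780cis only, and H3K27ac covered the same 3.0 kb in both lines. The widest lost regions were alike in this. At chr19:56095801-56101400, H3K9ac covered 5.6 kb in A2780 and none in A2780cis, with 4.6 and 3.8 kb of H3K27ac, and at chr19:55517001-55520800 it covered 3.8 kb in A2780 only, with 3.2 and 3.6 kb of H3K27ac. In these 4 regions a peak of 1 mark was thus listed in 1 line and a peak of the other mark in both.

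In CAOV4cis against CAOV4, fewer regions were common than in the A2780 pair. Of 183 regions, 70 (38.3%, 31.5 to 45.5) were common, 46 (25.1%, 19.4 to 31.9) gained and 67 (36.6%, 30.0 to 43.8) lost. Over all listed chromosomes the shares were 33.8% gained and 29.1% lost, so that gains were the larger class there. In the window losses were the larger class by count, but 28 gained stood against 29 lost among peaks over 2 kb alone, and 19 against 17 when partners of these peaks were sought in the complete lists, so no direction is given. The rest of chromosome 19 had 28.1% gained and 35.5% lost, close to the window. Wider peaks were not as often shared as in the A2780 pair: 17 of 63 CAOV4 peaks over 2 kb had no partner (27%, 17.6 to 39.0), and 19 of 65 in CAOV4cis (29.2%, 19.6 to 41.2). The CAOV4 share was close to the 27.7% (24.4 to 31.2) of the rest. The CAOV4cis share was above the 18.9% (15.9 to 22.2) of the rest, with overlapping intervals. Narrow CAOV4cis peaks went the other way, with 42.2% (30.9 to 54.4) without a partner in the window and 60.8% (56.8 to 64.7) in the rest. In common regions CAOV4cis covered 0.875 times the length of CAOV4 on the median, both in the window and in the rest.

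The widest region gained in CAOV4cis, chr19:53397801-53404400, was covered over 6.6 kb in CAOV4cis and not in CAOV4, while it was listed in A2780 (3.6 kb), A2780cis (1.8 kb) and with both hairpins (3.0 and 3.2 kb). The next, chr19:52192801-52197400, was covered over 4.6 kb in CAOV4cis, 3.8 kb in A2780 and 4.6 kb in A2780cis. The widest lost region, chr19:54382601-54387000, was covered over 4.4 kb in CAOV4 and over the same length in all 4 H3K27ac lists of A2780 origin. At chr19:55572001-55576200, CAOV4 was covered over 4.2 kb, A2780 over 2.4 kb and A2780cis over 3.2 kb. All 4 thus carried H3K27ac peaks in the A2780 lines whichever way they differed in the CAOV4 pair. Regions listed in both CAOV4 lines and in no list of A2780 origin numbered 6, and their median width was 2200 bp.

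Few changes coincided in the 2 cell line pairs, which share no library, in the window or in the rest. When the changed regions of each pair were set against each other, 2 of the 16 regions gained in A2780cis shared at least 1 bp with 2 of the 46 gained in CAOV4cis, and 3 of the 59 lost with 3 of the 67. In the opposite direction, 2 regions gained in A2780cis overlapped 2 lost in CAOV4cis, and no region lost in A2780cis overlapped one gained in CAOV4cis. In the rest of chromosome 19, 11 of the 266 regions gained in A2780cis overlapped one gained in CAOV4cis. Of the 811 lost there, 40 overlapped one lost in CAOV4cis. For opposite directions, 17 of the 266 gained overlapped a lost one and 26 of the 811 lost a gained one. When peaks were merged over all 8 lists instead, so that nearby peaks joined into wider regions, none of the 283 was gained in both resistant lines and none lost in both (Wilson upper bound 1.34% each). Of 3032 merged regions of the rest, 9 (0.297%) were gained in both and 36 (1.19%) lost in both, below that bound. By this merging 1 region, chr19:55802801-55805600, was listed in A2780 and CAOV4cis and in neither A2780cis nor CAOV4, with 0.2 kb covered in each of the former and 2.8 kb with shMBD3.26, and was picked out after its values were seen. In 105 regions (37.1%, 31.7 to 42.9) each pair had at least 1 peak, against 28.5% (26.9 to 30.2) in the rest.

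The comparisons of both hairpins against MBD3 use the same A2780 list as A2780cis does, so their losses are not independent of each other, and the values are given side by side. With shMBD3.26, 152 of 223 regions (68.2%, 61.8 to 73.9) were common, 19 (8.52%) gained and 52 (23.3%, 18.2 to 29.3) lost, against 18.0% gained and 34.0% lost over all listed chromosomes. With shMBD3.232, 148 of 214 (69.2%, 62.7 to 75) were common, 14 (6.54%) gained and 52 (24.3%, 19 to 30.5) lost, against 10.9% and 40.1%. With equal numbers of the widest peaks, 21 were gained and 38 lost with shMBD3.26, and 23 gained and 24 lost with shMBD3.232, so that for the latter losses no longer stood out. In the rest of chromosome 19 34.5% and 35.2% were lost, above the window for both hairpins. Of the A2780 peaks of up to 2 kb in the window, 45.6% (35.0 to 56.5) were without a partner in the shMBD3.26 list and 44.3% (33.9 to 55.3) in that of shMBD3.232, against 65.4% and 64.2% in the rest. For wider A2780 peaks the values were 12.4% and 13.2% against 15.5% and 14.6%, so that the narrow peaks set the window apart from the rest more than the wide ones did. Gains were narrow, with a median of 400 bp for shMBD3.26 and 800 bp for shMBD3.232. Among peaks over 2 kb, 1 of 89 with shMBD3.26 (1.12%) and 2 of 91 with shMBD3.232 (2.2%) had no partner in A2780. In the rest the shares were 3.04% and 4.77%, with overlapping intervals.

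Common regions were covered over a shorter length with either hairpin. The median was 0.837 times A2780 with shMBD3.26, with 106 of 152 regions covered less and 37 more, and 0.875 times with shMBD3.232, with 95 of 148 covered less and 37 more. In the rest of the chromosome the medians were 0.812 and 0.938. The A2780 list also had the highest covered length of the H3K27ac lists in the window, 762.6 kb, against 563.6 kb with shMBD3.26 and 580.6 kb with shMBD3.232. The hairpin lists were shorter as a whole, with 23960 and 19475 peaks, and the part of list length in these values was not tested.

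The widest losses are given with their values for both hairpins. The widest for shMBD3.232 was chr19:55733001-55742400, with 9.4 kb covered in A2780 and none with shMBD3.232, but 4.8 kb with shMBD3.26 and 3.8 kb in A2780cis. The widest for shMBD3.26 was the region at chr19:55871001-55876200 described above, with 0.4 kb left for shMBD3.232. Second in both was chr19:54929001-54932800, with 3.8 kb in A2780, none with either hairpin and 1.0 kb in A2780cis. Of the widest gains, chr19:52707201-52710800 (3.6 kb) was listed with shMBD3.232 alone, and chr19:54629601-54630600 (1.0 kb) with shMBD3.26 alone. At chr19:54950001-54952200, shMBD3.26 covered 2.2 kb and A2780cis 1.2 kb, and at chr19:56616001-56618400, shMBD3.232 covered 2.4 kb and A2780cis 0.8 kb. These 4 gained regions were picked by width. How far the hairpins agreed over all regions is not given, since both comparisons share the A2780 list.

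**Figure D4:**
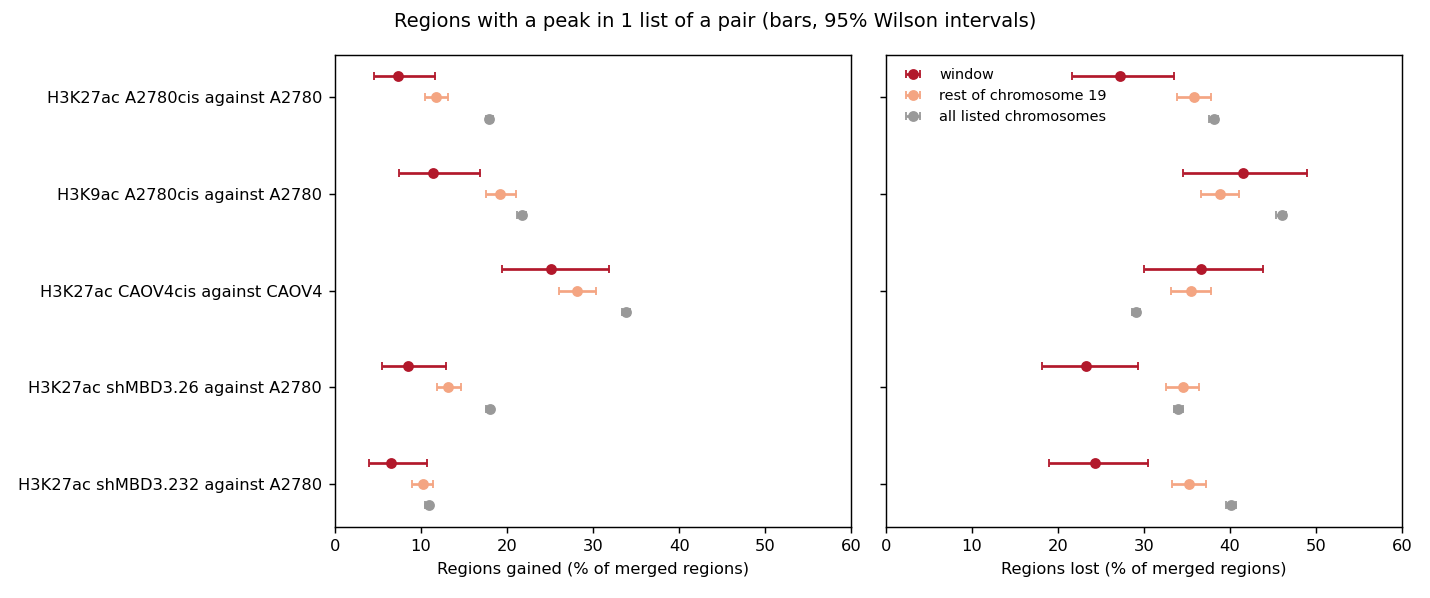
Share of merged regions gained (left) and lost (right), in %, for the 5 pairs of lists, in the window, the rest of chromosome 19 and all listed chromosomes, with bars for 95% Wilson intervals (counting error only). The window's gained share lies between 6.54 and 25.1% and its lost share between 23.3 and 41.5%, and the lost share is below that of the rest for the 3 comparisons of H3K27ac with A2780.

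In A2780, H3K27ac peaks of the window more often had H3K9ac than those of the rest. Of the 208 H3K27ac peaks, 126 or 60.6% (53.8 to 67.0) shared at least 1 bp with an H3K9ac peak, against 45.6% (43.6 to 47.7). In A2780cis the shares were 58.2% (50.6 to 65.4) and 55.5% (53.0 to 57.9), with overlapping intervals. The difference in A2780 was seen in both width classes, with 35.4% against 19.8% for peaks of up to 2 kb and 76.0% against 66.8% for wider ones, where the intervals overlapped. From the side of H3K9ac, an H3K27ac peak was found at 140 of 166 peaks in A2780 (84.3%) and at 102 of 108 in A2780cis (94.4%), with 78.6% and 89.8% in the rest and overlapping intervals. Of the H3K9ac peaks over 2 kb, all but 1 in each line had one. Over the 8 lists, 53 regions carried a peak in all 6 H3K27ac lists, and each of them also had a peak in at least 1 H3K9ac list, while 12 of 432 such regions in the rest had none. Only H3K9ac was listed in 23 regions (8.13%, against 8.81% in the rest), with a median width of 600 bp.

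The H3K27ac regions common to A2780 and A2780cis held an H3K9ac peak in 109 of 142 cases in A2780 (76.8%, 69.2 to 82.9) and in 90 in A2780cis (63.4%, 55.2 to 70.9). In the rest of the chromosome the shares were 68.0% and 68.6%. The A2780cis value was thus the lower one in the window and about equal in the rest, and the list of H3K9ac peaks in A2780cis was the shortest of all, with 15365 peaks. Of the 59 lost regions, 10 held H3K9ac in A2780 and 3 in A2780cis, and of the 16 gained regions 1 and 2. Changed H3K27ac regions thus rarely carried H3K9ac in either line, as in the rest, where 16.3% of lost regions did in A2780 and 9.77% of gained ones in A2780cis. Changed regions were also narrower, with medians of 1400 bp for gained and 1200 bp for lost ones against 3600 bp for common ones. Narrow H3K27ac peaks had H3K9ac less often than wide ones in both lines, and the part of width here was not tested.

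**Figure D5:**
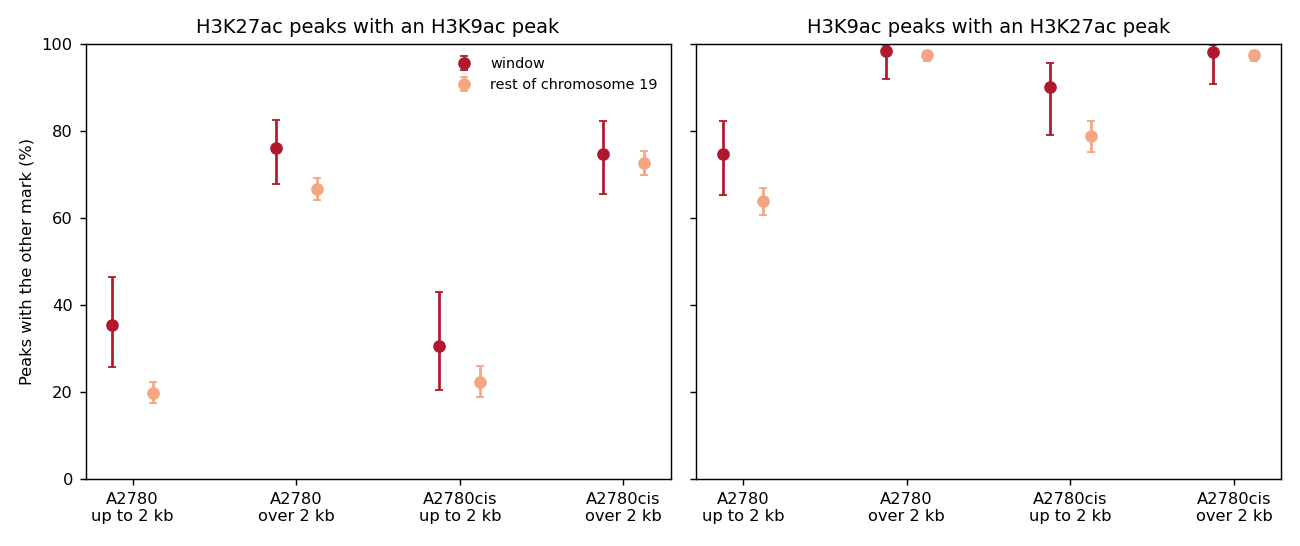
Share (%) of H3K27ac peaks with an H3K9ac peak (left) and of H3K9ac peaks with an H3K27ac peak (right) in A2780 and A2780cis, by peak width, for the window and the rest of chromosome 19, with bars for 95% Wilson intervals. For H3K27ac peaks of up to 2 kb in A2780 the window lies at 35.4% and the rest at 19.8%, and H3K9ac peaks over 2 kb have a partner in over 97% of cases in each line.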

How the data were processed

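According to their methods, the authors used Galaxy to align paired-end reads (Bowtie2), applied quantile normalization with an R script of their own and called peaks with MACS2. The submitters' processing notes name the build GRCh37/hg19, and tool versions are not given in the sources used here. The deposited files are 8 peak lists, 1 per library and none pooled, with start and end positions in bp. The score column is 0 in every row, so the lists hold no signal. On the standard chromosomes all boundaries are multiples of 200 bp, and neighboring peaks within a list never lie closer than 1000 bp, and the step that made this layout is not stated. Read depth behind a peak is unknown. Input libraries and cells with a control shRNA were not analysed here, nor were chromosomes 20, 21 and 22, which hold no peak in these lists.

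Members are the peaks that overlap the 6.7 Mb window from 52 Mb. The window, the lists and the rules were chosen with earlier results of these data known. Peaks sharing at least 1 bp were merged over all chromosomes, after leaving out 6 peaks off the standard chromosomes, and classed by presence. Shares carry 95% Wilson intervals, medians an interval from order statistics. With 1 library per condition no test was run and no p-value computed. The rest of chromosome 19 was taken from the first to the last listed peak, 52.4 Mb. Regions named are the 3 widest with peaks of all 8 lists, the 2 widest gained and lost per pair, the 2 longest empty stretches, the widest peak per list, and the richest and poorest 500 kb bin. At GRCh38.p14 positions, 11.1% of 296 gene starts in the interval lay under an A2780 H3K27ac peak, against a median of 11.8% when the positions were shifted and 45.3% at the best shift, of 511 kb, so the builds differ. No coordinate was converted, and that gene table was used for names and order only. Alternatives included a shared length of 50% of the shorter peak, partners within 5 kb, peaks over 2 kb, the wider 50% of a list, equal numbers of the widest peaks, a window narrowed by 1 Mb per side, and peaks wholly inside. Merging and classing were checked on copies of the A2780 H3K27ac list from which known peaks were removed. Gaps and partner rules were checked on an artificial regular array of peaks. Python 3.11.15 with numpy 2.4.6, pandas 2.3.3, SciPy 1.17.1 and matplotlib 3.10.9 was used.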

Additional observations from a re-analysis of the deposited data

Results flagged for a closer look

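In several of the regions and bins named above, H3K27ac went opposite ways in the A2780 and CAOV4 pairs. Those given below are not all of them, since the bin from 53.0 to 53.5 Mb described above did so too. Over all 283 merged regions of the window, the covered length changed in opposite directions in 47 and in the same direction in 47. The largest differences among regions not named above included chr19:56618801-56634200, with 15 and 10 kb in the A2780 pair and 3.2 and 7.0 kb in the CAOV4 pair, or -8.8 kb. Each line has 1 library and the difference between the pairs was not tested, so these are values only, given as the change in A2780cis minus the change in CAOV4cis. At chr19:56142601-56190600 the covered length was 41.2 kb in A2780 and 46.4 kb in A2780cis, and 20.0 kb in CAOV4 and 9.6 kb in CAOV4cis, a difference of 15.6 kb. The region starting at 53397801 differed by -8.4 kb, with 3.6 and 1.8 kb in the A2780 pair and 0.0 and 6.6 kb in the CAOV4 pair. The region starting at 55572001 differed by 5.0 kb, with 2.4 and 3.2 kb against 4.2 and 0.0 kb. Smaller differences were 2.8 kb for the region starting at 56601801, -1.2 kb for that at 58313801 and -1.6 kb for that at 56095801. In the poorest bin the covered share went from 0.44 to 0.96% in the A2780 pair and from 0.84 to 0.28% in the CAOV4 pair, a difference of 1.08 percentage points.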

How the results depend on the processing

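Each condition had 1 library, so the spread between replicates is unknown and limits every comparison above. No paired analysis was possible because the titles carry no replicate numbers and each condition has 1 library. Of 100 values under alternatives, 59 stayed within 1.5 times the reported count or within its counting error and 41 moved. An overlap of 50% moved none. The limit to peaks wholly inside the window is left out of these numbers, since no peak crossed an edge and it could change nothing. With partners within 5 kb, H3K27ac gains numbered 6 in A2780cis, 27 in CAOV4cis, 9 with shMBD3.26 and 3 with shMBD3.232, and losses 35, 40, 23 and 23. With peaks over 2 kb alone in both lists, gains were 28 in CAOV4cis and 8 with shMBD3.26, and losses 24 for H3K9ac and 29 in CAOV4cis. When partners of peaks over 2 kb were sought in the complete lists, an alternative chosen after seeing the data, gains were 2 for H3K27ac and 3 for H3K9ac in A2780cis, 19 in CAOV4cis, 1 with shMBD3.26 and 2 with shMBD3.232, and losses 18, 12, 17, 16 and 17. With equal numbers of the widest peaks, H3K27ac losses were 32 in A2780cis and 24 with shMBD3.232, H3K9ac losses 40, and gains with shMBD3.232 23, above the 14 of the full lists. In the window narrowed by 1 Mb per side, which has fewer regions, gains were 13 for H3K9ac and 28 in CAOV4cis. With the 15365 widest peaks of each list, median widths were 3400 bp in A2780, 3200 bp in A2780cis, 2200 bp for H3K9ac in A2780, 2800 bp with shMBD3.26, and 3000 bp in CAOV4 and CAOV4cis, and median gaps 22 kb for H3K9ac in A2780, 23 kb with shMBD3.26 and 30.0 kb in CAOV4cis. In the wider 50% of a list the window held 7.89% of chromosome 19 peaks in A2780cis, 7.64% with shMBD3.232 and 8.38% in CAOV4, and in CAOV4 8.62% of peaks over 2 kb. The cause was not tested, beyond the smaller number of peaks that these limits leave by construction.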
